A study of Homo sapiens with 6 samples.

Results

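The genes described here are 45 genes by which neurons are commonly recognised. They encode RNA-binding proteins, cytoskeletal and synaptic proteins, adhesion molecules, receptors and ion channels of neurons, together with 4 proteins of transcription control, among them the neuronal gene repressor REST and its corepressor RCOR1. They were read in HEK293, an established line from human embryonic kidney, and a gene counted as measured where a probe set of the array names it alone. By that rule 43 of the 45 genes were measured, of 18377 genes with a probe set of their own in the whole series. CAMK2B was not analysed here, and TUBB3 was read only on a probe set that also lists MC1R.

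HEK-BAHD1 cells carry 1 integrated copy of the BAHD1 cDNA, expressed constitutively from the cytomegalovirus (CMV) promoter. BAHD1 is a protein of heterochromatin, the compacted and mostly silent part of chromatin. HEK-CT cells, the isogenic control line, carry a β-galactosidase sequence placed out of frame according to the sample labels, and an empty vector according to the study's text. Total RNA of each line was hybridised to 3 Affymetrix HuGene 1.0 ST arrays, and both lines were grown in 200 µg/ml hygromycin B. Each line is a stable pool of transfectants grown in separate flasks, so p-values reflect only how cultures of 1 pool per line vary. Passages were not the same for all cultures. The only later passage that the study states is of a HEK-BAHD1 culture, so passage and line cannot be fully told apart. All values are log2 signals after RMA, a procedure of background correction, normalization across arrays and summary over the probes of each gene, and the number of arrays limits their precision. A signal of 1 probe set cannot be set against that of another, since probes differ in how strongly they bind.

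BAHD1 itself goes against the labels. Its signal was 6.75, 7.0 and 6.76 on HEK-BAHD1 replicates 1, 2 and 3, against 10.06, 9.81 and 9.93 on HEK-CT replicates 1, 2 and 3, a log2 fold change of -3.10 (SE, the standard error, 0.09, limma adjusted p = 3.12e-05, with 3 arrays in each line). The groups did not overlap, and HEK-BAHD1 arrays by label had the lower BAHD1 signal. The study describes HEK-BAHD1 as the line with more BAHD1 transcript, by RT-QPCR. It detected BAHD1 protein in chromatin of HEK-BAHD1 and not of HEK-CT. The direction here is opposite to the study's, as it is for SYP, a gene read below, and for ACSL4. ACSL4 was called higher in HEK-BAHD1 by label (log2 fold change 0.42, limma adjusted p = 0.00557). The study lists both genes among those of the X chromosome that were lower in HEK-BAHD1. Its other listed genes were not compared here. Whether labels were exchanged was not tested. HEK-BAHD1 and HEK-CT below thus stand for arrays with those labels as deposited, "higher" and "lower" run from HEK-CT to HEK-BAHD1 by label, and every direction would turn round if the labels were exchanged. Over all 21062 probe sets that name a gene, 1430 were called higher and 1345 lower, where a call joins an adjusted p under 0.05 with a difference of group medians above 0.2. Array medians lay between 5.46 and 5.56.

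Neurons and other cells differ in which of these genes are open to transcription. In cells that are not neurons, REST binds a DNA element named RE1 near many neuronal genes, and RCOR1 (CoREST) joins it to enzymes that remove acetyl and methyl groups from histones, which keeps those genes silent. As neurons form, REST is lost and its targets become active. HEK293 is labelled a kidney line, yet it is known to hold transcripts typical of neurons, among them neurofilament transcripts.

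Promoter windows were read to show what sequence stands before the starts of these genes. RefSeq (GRCh38.p14) gave windows of 300 bases, from 250 bases before to 50 bases after an annotated start, for 33 of the 45 genes and 87 starts. The RE1 letters TTCAGCACC and GGACAG, in this order and 2 bases apart, were searched on both strands. All 15 letters were found in 1 of the 87 windows, that of GRIA2, and in 5 of 35116 windows of all genes (0.0142%). With up to 2 mismatches allowed, GRIA2 was still the 1 gene of the list with a match, against 66 of 35116 windows (0.188%). TTCAGCACC alone stood in 0.376% of all windows, and the short GGACAG alone in 20.5% of all windows and in 25 of the 87. A match is a description of the letters, and many REST elements lie outside such a window. The GRIA2 window is printed because it holds the match, in capitals, whose centre lies 219 bases before the start and which reads as RE1 on the other strand. It spans chr4:157220369-157220668 on the plus strand.
GRIA2: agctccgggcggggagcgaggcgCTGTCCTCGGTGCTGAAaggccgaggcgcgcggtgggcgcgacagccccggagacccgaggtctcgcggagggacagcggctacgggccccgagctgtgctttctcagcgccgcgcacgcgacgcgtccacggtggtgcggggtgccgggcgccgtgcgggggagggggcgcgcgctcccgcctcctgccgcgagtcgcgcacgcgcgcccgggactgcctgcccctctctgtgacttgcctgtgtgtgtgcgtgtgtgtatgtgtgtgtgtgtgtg

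The windows of MAP2 and NLGN1 are printed because these genes were called in opposite directions and kept their calls under every alternative in which they were tested, among genes for which a window was given. Capitals mark CpG, the dinucleotide at which most cytosine methylation of human DNA lies, since the study profiled methylation in these lines. Methylation itself was not analysed here. MAP2 has 5 CpG in its first listed window, at chr2:209661246-209661545 on the plus strand. NLGN1 has 22 in its first listed window, at chr3:173395702-173396001 on the plus strand. The median over the first listed windows of the 33 genes was 15, with a range of 2 to 52, and over all 35116 windows it was 14. The MAP2 window is thus poorer in CpG than the median window and the NLGN1 window richer. Among other genes called higher, first listed windows hold 9 CpG for VSNL1, 5 for NRXN3, 10 for RBFOX3 and 38 for NRCAM, more than for NLGN1. A link of CpG number with direction was not tested. The further windows given for these genes hold 7 and 10 CpG for MAP2 and 28 for NLGN1.
MAP2: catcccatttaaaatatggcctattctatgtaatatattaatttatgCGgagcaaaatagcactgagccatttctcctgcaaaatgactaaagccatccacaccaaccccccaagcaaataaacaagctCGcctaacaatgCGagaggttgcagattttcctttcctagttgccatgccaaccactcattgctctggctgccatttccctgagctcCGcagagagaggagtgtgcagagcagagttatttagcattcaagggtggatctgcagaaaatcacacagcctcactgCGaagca
NLGN1: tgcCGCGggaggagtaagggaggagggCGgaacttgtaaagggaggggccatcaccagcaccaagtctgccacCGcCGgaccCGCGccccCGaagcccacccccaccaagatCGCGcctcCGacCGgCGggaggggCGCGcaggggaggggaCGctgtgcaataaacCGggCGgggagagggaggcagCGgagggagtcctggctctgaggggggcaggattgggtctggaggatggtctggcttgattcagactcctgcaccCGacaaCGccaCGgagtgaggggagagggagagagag

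A gene was taken as above background where the mean of its 6 arrays exceeded 6. By this threshold 18 of the 43 genes were above background and 25 were not. Just above it lay NLGN1 with a mean of 6.01, RBFOX3 with 6.03, GABBR1 with 6.08 and CELF3 with 6.09, and just under it NLGN2 with 5.80 and STMN4 with 5.73. Means of the 43 genes lay between 2.94 and 11.76. At least 1 gene of each role except the postsynaptic scaffolds and kinases was above background. Fewer cells with a transcript and less transcript per cell cannot be told apart in such bulk RNA.

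**Figure D1:**
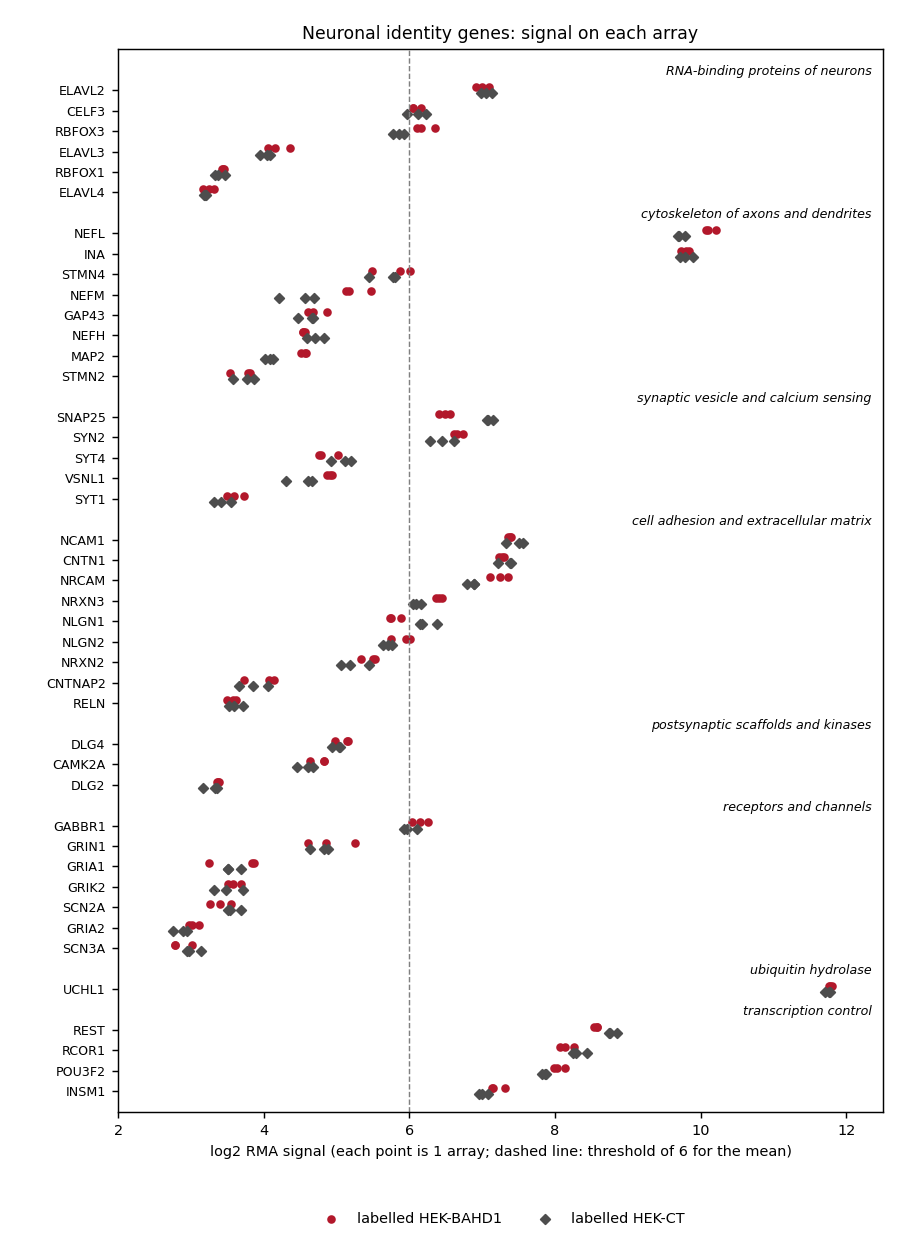
Log2 RMA signal (horizontal axis) of the 43 measured genes, grouped by role, on each of the 6 arrays; each point is 1 array, circles are labelled HEK-BAHD1 and diamonds HEK-CT, and the dashed line marks the threshold of 6 for the mean. Most circles and diamonds of a gene lie together, 18 genes have a mean above 6, and SNAP25, NLGN1, NEFM, NEFL and MAP2 show groups that stand apart.

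In HEK-BAHD1, relative to HEK-CT, 7 of the 43 genes were called higher (16.3%, against 6.79% of all probe sets tested) and 2 were called lower (4.65%, against 6.39% of all). The genes and lists were chosen with earlier results of these data known. The shares here and below thus describe the lists and test no excess over all probe sets. Without HEK-CT replicate 3 the count called higher was 3, and over all probe sets it fell from 1430 to 806. Without HEK-BAHD1 replicate 1 it was 4, and 931 over all probe sets. The LPE test, a test for arrays with few replicates, also gave 4 higher. The 7 that rose were NEFM, MAP2, NEFL, VSNL1, NRCAM, RBFOX3 and NRXN3, and the 2 that fell were SNAP25 and NLGN1. NEFM and NEFL lie on chromosome 8, MAP2 and VSNL1 on chromosome 2, NRCAM on chromosome 7, RBFOX3 on chromosome 17, NRXN3 on chromosome 14, SNAP25 on chromosome 20 and NLGN1 on chromosome 3 (GRCh38). The other 34 were not called, REST and RCOR1 among them. Of the 18 genes above background, 4 rose (22.2%, against 9.31% of all probe sets above background) and 2 fell (11.1%, against 9.75%). RBFOX3 and NLGN1 are in these counts because of the line in which they were higher, their mean in the other line being under 6, so such counts support no direction. Of the 15 genes with a mean above 6 in both lines, a count added after the values were seen, 3 rose (20%, against 8.85% of such probe sets) and 1 fell (6.67%, against 9.61%). Of the 25 not above background, 3 rose (12%, against 3.65%) and 0 fell by limma (against 2.20%), with 0 lower at p under 0.05 without adjustment and 0 lower by the LPE test. The median log2 fold change was 0.09 over the 43 genes and 0.00 over all probe sets, and over those above background it was 0.01 for the listed genes and -0.01 for all. Single values ran from -0.61 to 0.77, with 28 of the 43 positive and 15 negative.

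Other ways of counting also gave more genes higher than lower. The groups did not overlap in 11 genes with HEK-BAHD1 higher (25.6%, against 16.7% of all probe sets) and in 4 with HEK-BAHD1 lower (9.30%, against 16.9%). At an unadjusted p under 0.05, 12 genes were higher (14.5% of all probe sets were) and 3 lower (14.8% of all). The 4 that the LPE test called higher were NEFM, MAP2, NEFL and NRCAM (6.29% of all were higher by that test), and it called the same 2 lower as limma (7.41% of all). When each array was centred on its own median, 6 genes were called higher and 3 lower, and over all probe sets 1052 were higher and 1823 lower.

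**Figure D2:**
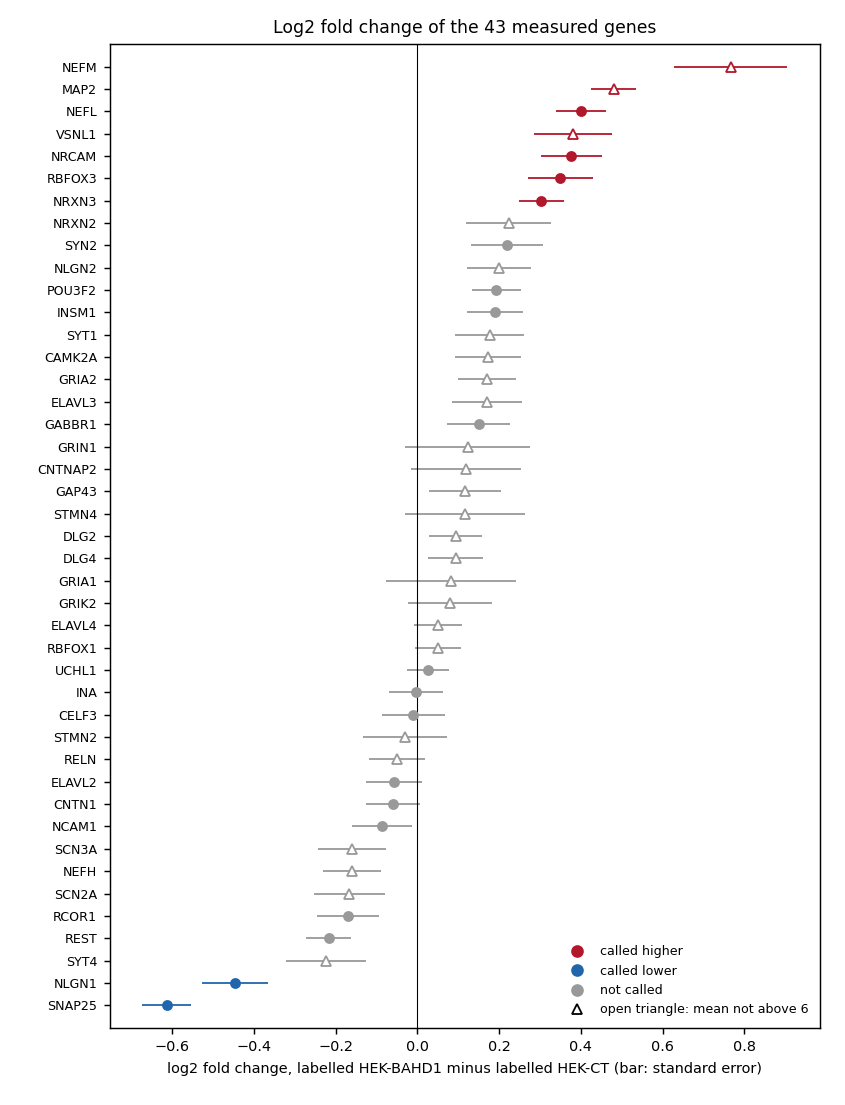
Log2 fold change of the 43 genes, HEK-BAHD1 minus HEK-CT by label (horizontal axis), with the standard error as a bar; red marks genes called higher, blue those called lower, grey those not called, and open triangles genes whose mean is not above 6. The 7 called higher span 0.30 to 0.77, SNAP25 and NLGN1 lie at -0.61 and -0.45, and the 34 not called lie between them.

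The cytoskeleton of axons and dendrites held 3 of the 7 rises. Its measured genes were 8, of which 2 were above background, with a median log2 fold change of 0.12. By limma 3 rose (37.5%, against 6.79% of all probe sets) and 0 fell (against 6.39%). At p under 0.05 without adjustment 0 were lower, and 0 by the LPE test. In lists of so few genes, here and below, 0 or 1 call cannot be told from the share over all probe sets. Neurofilaments are the intermediate filaments that fill the axon and set its calibre, built from a light chain (NEFL), a medium chain (NEFM), a heavy chain (NEFH) and α-internexin (INA). NEFL had signals of 10.10, 10.07 and 10.21 in HEK-BAHD1, against 9.70, 9.79 and 9.69 in HEK-CT. Every HEK-BAHD1 array thus lay above every HEK-CT array, with a log2 fold change of 0.40 (SE 0.06, limma adjusted p = 0.00766). NEFM had 5.17, 5.47 and 5.13 in HEK-BAHD1 against 4.21, 4.57 and 4.69 in HEK-CT. These groups did not overlap either, and the log2 fold change of 0.77 was the largest of the 43 (SE 0.14, limma adjusted p = 0.0130), although neither line lay above 6.

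NEFM and NEFL are neighbours in the genome, with 0 protein-coding genes between them. The other neurofilament genes were not called. INA, which copolymerises with the neurofilament chains, had 9.73, 9.84 and 9.80 in HEK-BAHD1 and 9.89, 9.78 and 9.71 in HEK-CT. Its groups overlapped, and the 95% interval of the difference ran from -0.16 to 0.15. NEFH had 4.54, 4.54 and 4.56 in HEK-BAHD1 and 4.83, 4.70 and 4.59 in HEK-CT, a log2 fold change of -0.16 that was not called (limma adjusted p = 0.177), with groups that did not overlap. The differences between these chains in their fold change were not tested.

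MAP2, which binds microtubules of dendrites, was the third gene of this role that rose. Its signals were 4.58, 4.56 and 4.51 in HEK-BAHD1 against 4.08, 4.12 and 4.01 in HEK-CT. All HEK-BAHD1 arrays were higher, by 0.48 on average (SE 0.06, limma adjusted p = 0.00269), although both lines lay under 6. The stathmin-like microtubule proteins STMN2 and STMN4 and the growth cone protein GAP43 were not called and not above background, with log2 fold changes of -0.03, 0.12 and 0.12. The probe set shared by TUBB3, a β-tubulin of neurons, and MC1R had 7.20, 7.10 and 7.32 in HEK-BAHD1 and 7.48, 7.23 and 7.23 in HEK-CT, and was not called (log2 fold change -0.11, limma adjusted p = 0.489).

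Among genes of the synaptic vesicle and of calcium sensing, 1 rose and 1 fell of 5 measured (20% each, against 6.79% and 6.39% of all probe sets). SNAP25, a SNARE protein of the plasma membrane that drives vesicle fusion, showed the largest fall of the 43 genes. It had 6.41, 6.56 and 6.49 in HEK-BAHD1, against 7.07, 7.08 and 7.15 in HEK-CT. The gap between the groups was wider than the spread within either, with a log2 fold change of -0.61 (SE 0.06, limma adjusted p = 0.00151). VSNL1, a neuronal calcium sensor, had 4.86, 4.93 and 4.91 in HEK-BAHD1 and 4.60, 4.66 and 4.30 in HEK-CT. HEK-CT replicate 3 lay lowest and both lines lay under 6, and VSNL1 was called higher by 0.38 (SE 0.10, limma adjusted p = 0.0387), a call that 10 of 13 alternatives ended, with adjusted p-values of up to 0.20.

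SYN2, a synapsin that tethers vesicles to the cytoskeleton, had 6.61, 6.65 and 6.73 in HEK-BAHD1 and 6.61, 6.28 and 6.44 in HEK-CT, with groups that touched at 6.61. Its log2 fold change of 0.22 was not called (limma adjusted p = 0.144). The calcium sensors of release SYT1 and SYT4 were not above background and not called, at 0.18 and -0.22.

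Cell adhesion and extracellular matrix genes held 2 rises and 1 fall of 9 measured (22.2% and 11.1%, against 6.79% and 6.39% of all probe sets). Of the 9 genes, 5 were above background. Neurexins on the presynaptic side and neuroligins on the postsynaptic side bind each other across the synaptic cleft. NRXN3, a neurexin, had 6.40, 6.44 and 6.37 in HEK-BAHD1, against 6.05, 6.16 and 6.09 in HEK-CT. The groups stood apart, and NRXN3 rose by 0.30 (SE 0.06, limma adjusted p = 0.0134), a call not made by the LPE test (adjusted p = 0.0947) and lost without HEK-CT replicate 3 (limma adjusted p = 0.0531). NLGN1, a neuroligin of excitatory synapses, had 5.73, 5.89 and 5.74 in HEK-BAHD1, against 6.15, 6.38 and 6.17 in HEK-CT. It fell in HEK-BAHD1, where all 3 arrays lay under 6, with a log2 fold change of -0.45 (SE 0.08, limma adjusted p = 0.0131). NRXN2 and NLGN2, a neuroligin of inhibitory synapses, were not called and not above background, with log2 fold changes of 0.22 and 0.20 (limma adjusted p = 0.203 and 0.139).

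NRCAM, an adhesion molecule of the immunoglobulin superfamily that gathers at nodes of Ranvier, had 7.24, 7.35 and 7.10 in HEK-BAHD1, against 6.89, 6.79 and 6.88 in HEK-CT. It rose by 0.38 (SE 0.07, limma adjusted p = 0.0183). Its call was lost without HEK-CT replicate 2 (adjusted p = 0.0571), HEK-CT replicate 3 (0.0513) or HEK-BAHD1 replicate 1 (0.0579, all from limma). The related molecules NCAM1 and CNTN1 were above background and not called. NCAM1 averaged 7.38 in HEK-BAHD1 and 7.46 in HEK-CT (95% interval of the difference -0.26 to 0.08), and CNTN1 averaged 7.27 in HEK-BAHD1 and 7.33 in HEK-CT (-0.21 to 0.09). CNTNAP2, a neurexin-like protein of the axon, and RELN, the secreted guide of migrating neurons, lay under 6 and were not called, at 0.12 and -0.05.

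**Figure D3:**
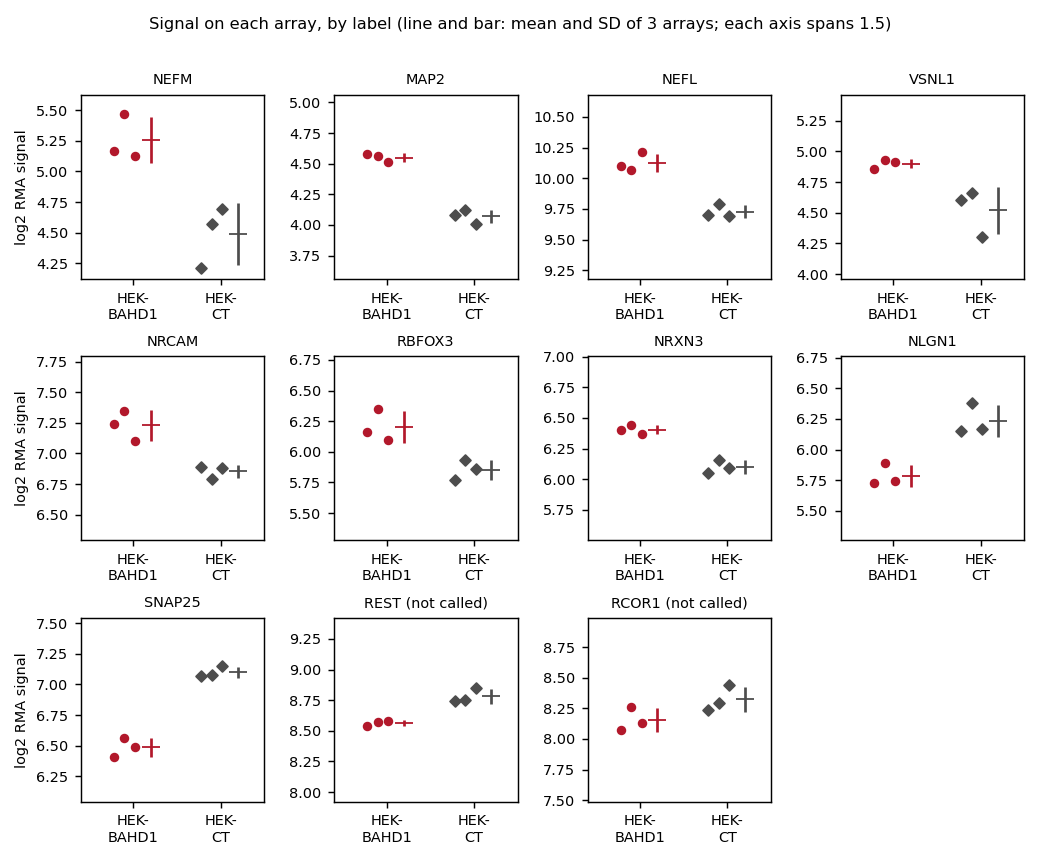
Log2 RMA signal (vertical axes of equal span) of the 9 called genes and of REST and RCOR1 on each array, with HEK-BAHD1 left of HEK-CT by label; each point is 1 array, with the mean as a line and the SD of the 3 arrays as a bar. The groups do not overlap in any panel but that of RCOR1, and VSNL1 and NEFM show the widest HEK-CT spread.

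Of 6 RNA-binding proteins of neurons, 1 rose (16.7%, against 6.79% of all probe sets) and 0 fell (against 6.39%) by limma. At p under 0.05 without adjustment 0 were lower, and 0 by the LPE test. RBFOX3, known as the nuclear antigen NeuN and a splicing factor, had 6.16, 6.35 and 6.10 in HEK-BAHD1, against 5.77, 5.93 and 5.86 in HEK-CT. All HEK-CT arrays lay under 6 and all HEK-BAHD1 arrays above it, with a log2 fold change of 0.35 (SE 0.08, limma adjusted p = 0.0292). The call depended on the setting. It was lost in 6 of 14 alternatives (adjusted p of up to 0.134, by the LPE test), among them the fits without HEK-CT replicate 1 (0.0874), HEK-CT replicate 3 (0.0796), HEK-BAHD1 replicate 1 (0.0646) or HEK-BAHD1 replicate 2 (0.0647, these by limma). RBFOX3 has 2 further probe sets, with means of 5.09 and 2.97 and log2 fold changes of 0.05 and 0.12 that were not called (limma adjusted p = 0.730 and 0.672).

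ELAVL2, of the Hu proteins that stabilise neuronal transcripts, was above background and not called, with 6.91, 7.09 and 6.99 in HEK-BAHD1 and 6.98, 7.13 and 7.05 in HEK-CT. CELF3, a splicing regulator, had 6.16, 6.05 and 6.05 in HEK-BAHD1 and 6.22, 5.96 and 6.11 in HEK-CT and was not called. The other Hu genes ELAVL3 and ELAVL4 and the splicing factor RBFOX1 lay under 6, with log2 fold changes of 0.17, 0.05 and 0.05 and no call.

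Receptors, channels and postsynaptic scaffolds held no call. Of 7 receptors and channels, 0 rose and 0 fell by limma, with 1 higher and 0 lower at p under 0.05 without adjustment and 0 by the LPE test. GABBR1, a subunit of the metabotropic GABA receptor, was above background with 6.26, 6.15 and 6.04 in HEK-BAHD1 and 5.97, 5.93 and 6.10 in HEK-CT. Its groups overlapped (log2 fold change 0.15, limma adjusted p = 0.242), and its other 2 probe sets gave 0.22 and 0.09 with no call. The glutamate receptor subunits GRIA1, GRIA2, GRIK2 and GRIN1 and the sodium channels SCN2A and SCN3A all lay under 6, with log2 fold changes between -0.17 and 0.17. GRIA2, whose promoter window holds the RE1 letters printed above, had 3.11, 2.97 and 3.01 in HEK-BAHD1 and 2.75, 2.89 and 2.94 in HEK-CT. The groups did not overlap, but the log2 fold change of 0.17 was not called (limma adjusted p = 0.156), and its signal lay far under the threshold of 6 in both lines.

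The scaffolds DLG4 (PSD-95) and DLG2 and the kinase CAMK2A, which act behind the postsynaptic membrane, had means of 5.05, 3.33 and 4.67 and log2 fold changes of 0.09, 0.09 and 0.17. None of these 3 was called by limma, by the LPE test or at p under 0.05 without adjustment. UCHL1, a ubiquitin hydrolase abundant in neurons, was above background and not called, with 11.80, 11.76 and 11.77 in HEK-BAHD1 and 11.76, 11.78 and 11.71 in HEK-CT. The 95% interval of its difference ran from -0.09 to 0.15.

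The 4 proteins of transcription control were all above background and none was called by limma (2 higher and 1 lower at p under 0.05 without adjustment, 0 by the LPE test). REST had 8.54, 8.57 and 8.58 in HEK-BAHD1, against 8.74, 8.75 and 8.85 in HEK-CT. The groups did not overlap and the log2 fold change was -0.22 (SE 0.06, limma adjusted p = 0.0408), but the difference of medians, -0.18, was short of 0.2. REST was called lower when the arrays were centred on their medians (-0.26, limma adjusted p = 0.0249), and its adjusted p ran from 0.00990 to 0.137 over the alternatives. RCOR1 had 8.07, 8.26 and 8.13 in HEK-BAHD1 and 8.24, 8.29 and 8.44 in HEK-CT. Its groups overlapped and it was not called (log2 fold change -0.17, SE 0.08, limma adjusted p = 0.189).

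POU3F2 (BRN2) and INSM1 are transcription factors of neural and neuroendocrine precursors. POU3F2 had 7.98, 8.02 and 8.14 in HEK-BAHD1, against 7.82, 7.86 and 7.88 in HEK-CT. INSM1 had 7.14, 7.15 and 7.31 in HEK-BAHD1, against 6.99, 6.96 and 7.08 in HEK-CT. In both genes every HEK-BAHD1 array was the higher, by 0.19 on average, but neither passed (adjusted p = 0.0769 for POU3F2 and 0.110 for INSM1, from limma).

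Lists of other genes with the same roles, and of the partners of REST, were read beside the 43 genes. Of 13 measured partners in the REST and CoREST complexes, 12 were above background, and the median log2 fold change was 0.00. By limma 0 rose (against 6.79% of all probe sets) and 1 fell (7.69%, against 6.39%). At p under 0.05 without adjustment 0 were higher and 2 lower, and by the LPE test 0 and 1. The one that fell was KDM5C, a histone demethylase, at 9.70 in HEK-BAHD1 and 9.96 in HEK-CT (log2 fold change -0.26, SE 0.05, limma adjusted p = 0.0177). Of 22 other presynaptic genes, 2 rose (9.09%, against 6.79% of all probe sets) and 3 fell (13.6%, against 6.39%), with a median of 0.05. SYNJ1, a lipid phosphatase of vesicle recycling, averaged 7.62 in HEK-BAHD1 and 8.30 in HEK-CT (-0.68, SE 0.12, limma adjusted p = 0.0114). SYT11, a synaptotagmin, averaged 7.76 in HEK-BAHD1 and 8.23 in HEK-CT (-0.47, SE 0.08, limma adjusted p = 0.0117). The vesicle proteins SV2A and SYN1 were called higher by 0.38 and lower with -0.29 (limma adjusted p = 0.0228 and 0.0416), SYN1 not above background. The vesicle protein SYP was the other gene called higher (0.28, limma adjusted p = 0.0433), although the study lists it among genes of the X chromosome that were lower in HEK-BAHD1. That list was chosen on these cell lines and is not independent evidence, but its direction for SYP is opposite to that by label here.

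Of 16 other cytoskeleton and axon genes, 11 were above background, with a median of 0.09 and 6 negative fold changes. By limma 3 rose (18.8%, against 6.79% of all probe sets) and 0 fell (against 6.39%). At p under 0.05 without adjustment 1 was lower, and 0 by the LPE test. ANK3, an ankyrin of the axon initial segment, was named after its values were seen. It was not called, since its medians differed by -0.19, although its log2 fold change was -0.24 (limma adjusted p = 0.0366) and its groups did not overlap. TUBB2B, a β-tubulin of the developing brain, averaged 9.83 in HEK-BAHD1 and 9.25 in HEK-CT, a log2 fold change of 0.58 (SE 0.06, limma adjusted p = 0.00235). DPYSL4, a collapsin response mediator, averaged 6.95 in HEK-BAHD1 and 6.53 in HEK-CT (0.42, limma adjusted p = 0.0228). MAP1B, a microtubule protein of growing axons, averaged 9.21 in HEK-BAHD1 and 8.87 in HEK-CT (0.34, limma adjusted p = 0.0288). Of 15 neuronal transcription factors, 2 rose (13.3%, against 6.79% of all probe sets) and 0 fell (against 6.39%) by limma, with a median of 0.13. At p under 0.05 without adjustment 0 were lower, and 0 by the LPE test. SOX4, of neural and other progenitors, averaged 9.15 in HEK-BAHD1 and 8.66 in HEK-CT (0.48, SE 0.06, limma adjusted p = 0.00402), and NEUROG1, a proneural factor not above background, was higher by 0.29 (limma adjusted p = 0.0150). Of 15 other postsynaptic and channel genes, 2 were above background, and 0 rose and 0 fell by limma (1 higher and 1 lower at p under 0.05 without adjustment, 0 by the LPE test).

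**Figure D4:**
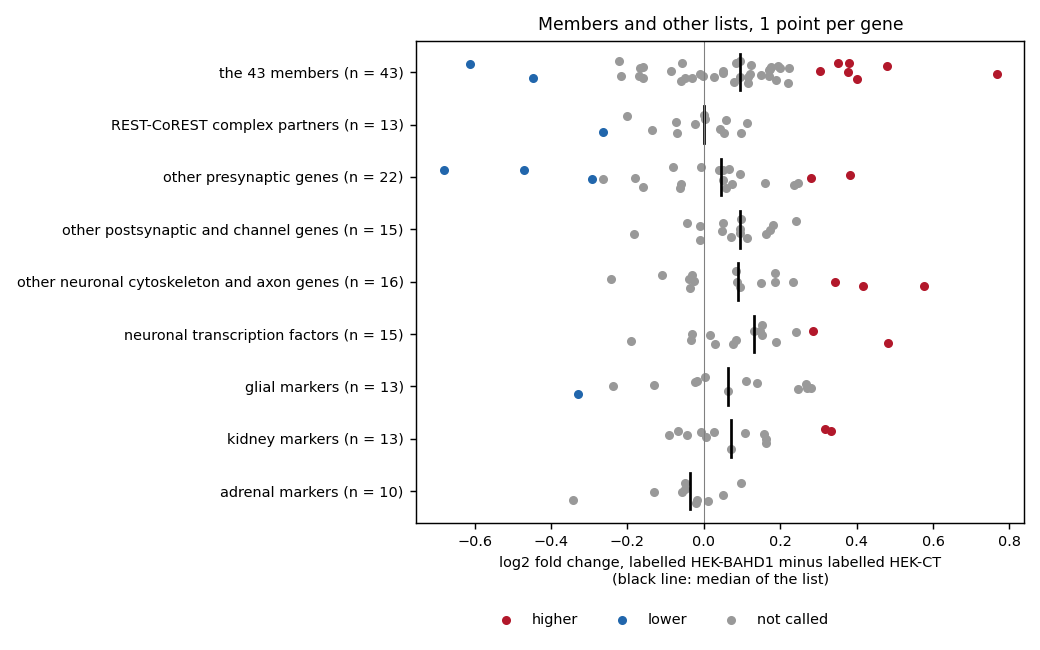
Log2 fold change of each measured gene, HEK-BAHD1 minus HEK-CT by label (horizontal axis), for the 43 genes and for 8 further lists; red points were called higher, blue lower and grey not called, and the black line is the median of a list. All medians lie near 0, between -0.04 for adrenal markers and 0.13 for neuronal transcription factors.

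Markers of other cell types were read to check the labelled line. Of 13 measured kidney genes, 6 were above background, namely SALL1, GATA3, EYA1, SIX2, WT1 and CITED1, whereas PAX2 and PAX8, which define renal lineages, averaged 5.74 and 5.34, and the podocyte gene NPHS1 and the tubule genes AQP2 and CDH16 were not above background. SIX2 and CITED1, of nephron progenitors, rose by 0.32 and 0.33 (limma adjusted p = 0.0129 and 0.0161), which is 15.4% of the kidney list, against 6.79% of all probe sets. By limma 0 kidney genes fell, against 6.39% of all (0 at p under 0.05 without adjustment, 0 by the LPE test). The summed level of the kidney list was 10.35 to 10.38 in HEK-BAHD1 and 10.25 to 10.34 in HEK-CT. Of 13 glial markers, only SLC1A3 and OLIG1 were above background, and the defining GFAP, AQP4, S100B, MBP and SOX10 were not. By limma 0 were called higher (3 at p under 0.05 without adjustment, 0 by the LPE test). SLC1A3, a glutamate transporter, was called lower (-0.33, limma adjusted p = 0.0217), which is 7.69% of the list, against 6.39% of all probe sets. OLIG1 was not called, since its medians differed by 0.2 and not by more. Its log2 fold change was 0.25 (limma adjusted p = 0.0343), and its groups did not overlap. The median log2 fold change of the glial list was 0.06, with 8 positive and 5 negative values. The summed glial level was 9.57 to 9.63 in HEK-BAHD1 and 9.67 to 9.77 in HEK-CT. Of 10 adrenal markers, 0 were above background and 0 were called by limma (0 higher and 1 lower at p under 0.05 without adjustment, 0 by the LPE test). The summed level of the 43 listed genes was 13.01 to 13.03 in HEK-BAHD1 and 12.95 to 12.97 in HEK-CT. Such sums are set mostly by the brightest genes of a list. Among these were UCHL1, not called (11.78 in HEK-BAHD1, 11.75 in HEK-CT), and NEFL, called higher (10.13 in HEK-BAHD1, 9.73 in HEK-CT). In the glial list SLC1A3 was among them (8.53 in HEK-BAHD1, 8.86 in HEK-CT). The sums differed between the lines, but they cannot show whether a change is shared across a list. The part of the marker lists in the difference was not tested.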

How the data were processed

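Total RNA was measured on 6 arrays, 3 per line, and groups were taken from the sample titles. The deposited log2 values, with 2 decimals, were made by the authors with RMA (version not given in the sources used here). Of 28869 probe sets, 19310 name 1 gene, 1752 several and 7807 none. The 21062 that name a gene were tested with limma 3.58.1 in R 4.3.3 (lmFit, eBayes, Benjamini-Hochberg over all of them). Calls joined an adjusted p under 0.05 with group medians more than 0.2 apart. The LPE test of the study's methods was written anew (100 bins, spline of 10 degrees of freedom). For genes with several probe sets, the one with the highest mean was used. All listed genes are accounted for, and called genes, REST and RCOR1 are given on every array. Of the other lists, up to 4 called genes with the largest change are named. SYP, ANK3, ACSL4 (which is in no list) and the values of OLIG1 were added after their values were seen. Symbols and chromosomes came from RefSeq, and no gene coordinates of the array annotation, whose build the sources used here do not give, are printed. The summed level is log2 of the sum of unlogged signals. limma and the LPE test were first tested on simulated arrays. Genes and lists were chosen with earlier results of these data known. Alternatives were the LPE test, other scalings, filters and variance models, no median threshold, a replicate block, and each array left out in turn.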

Additional observations from a re-analysis of the deposited data

How the results depend on the processing

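No direction of BAHD1, of a called gene, of REST or of RCOR1 turned round under any alternative, but most alternatives could not have turned one. The LPE test, the filters, the variance models, the median threshold and the replicate block leave the fold change as it was. Leaving out 1 array cannot reverse groups that do not overlap, so except for RCOR1 only the other scalings could have done so. BAHD1, SNAP25, NLGN1, NEFL, NEFM and MAP2 kept their calls under every alternative that could be run on them. NLGN1 kept its call narrowly without HEK-BAHD1 replicate 1 (limma adjusted p = 0.0484) and without HEK-BAHD1 replicate 3 (0.0498). NEFM, MAP2 and VSNL1 were dropped by the filter on dim probe sets. Of the 43 genes, 18 were above background with a mean above 6 and 11 with a mean above 7. With a mean above 6 required in each line, an alternative chosen after seeing the data, 3 genes above background rose and 1 fell, in place of 4 and 2. The LPE test called 4 genes higher, 2 of them above background, in place of 7 and 4. Leaving out the dimmest 30% of probe sets before the fit also gave 4 higher, since fewer genes were then tested. Leaving out 1 array gave 3 (without HEK-CT replicate 3) to 6 called higher, with 4 without HEK-BAHD1 replicate 1, and 1 (without HEK-CT replicate 3) to 4 above background, with 2 without HEK-BAHD1 replicate 1; 2 genes were called lower each time. Over all probe sets the count called higher also fell, from 1430 to between 806 (without HEK-CT replicate 3) and 938 (without HEK-CT replicate 2). The count called lower fell from 1345 to between 581 (without HEK-CT replicate 3) and 937 (without HEK-BAHD1 replicate 2). The cause of the losses among the listed genes was not tested, beyond the smaller number of arrays. The median log2 fold change over the genes was 0.05 after centring and 0.05 to 0.12 when 1 array was left out.

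Replicates of the same number deviated from their group means with correlations of -0.08, 0.07 and -0.04. Between different numbers the correlations ran from -0.14 to 0.18. No pairing by number is thus seen, but so few correlations cannot exclude a pairing. With the replicate number as a block (replicate block), 6 genes were called higher and 2 lower, VSNL1 being lost (adjusted p = 0.0554 from limma), and over all probe sets 962 were higher and 829 lower. Changing the scaling by centring gave 1052 higher and 1823 lower over all probe sets, 36.6% of calls higher against 51.5%. Dim probe sets limit what can be said: 25 of the 43 genes had a mean not above 6.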
